A study of Mus musculus with 4 samples.

Results

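The 10 genes described here encode the proteins that hold, polymerise and turn over cytoplasmic actin: the thymosins Tmsb4x and Tmsb10, the actins Actb and Actg1, the profilins Pfn1 and Pfn2, the cofilin family members Cfl1, Cfl2 and Dstn, and the Arp2/3 complex subunit Arpc2. They were selected by gene name with their measured levels in these samples already known, so the genotype difference of each is given as a description, without a test. All 10 had an entry among the 18169 genes of the expression table, and all 10 were among the 12576 genes whose mean over the 4 samples was at least 1 TPM (a read count per transcript length, rescaled to the same total in every sample).

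The samples were primary neural stem/progenitor cells (NSCs) of C57BL/6 mice, 2 of genotype +/+ and 2 of genotype Chd5-/-, in which the chromatin remodeler Chd5 was targeted. Each culture came from the periventricular region of a single newborn brain and was grown in medium with epidermal growth factor and fibroblast growth factor 2. The culture description gives postnatal day 1 for all samples, whereas the age labels give days 1 and 2 in +/+ but days 3 and 4 in Chd5-/-; under the second reading age and genotype cannot be told apart. The sources used here do not give the part of Chd5 that the allele removes or whether the cultures share litters.

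Actin exists in cells as monomers and as filaments that grow at one end and disassemble at the other. Thymosins hold monomers in reserve, profilins deliver them to growing ends, cofilins and destrin sever old filaments, and the Arp2/3 complex starts new branches. In neural stem cells this cycle shapes the processes, the contacts with neighbours and the cleavage furrow.

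Chd5 itself, on chr4:152338651-152390194 (GRCm38, plus strand), was at 0.39 and 0.37 TPM in +/+ replicates 1 and 2 and at 0.06 and 0.04 TPM in Chd5-/- replicates 1 and 2. Both Chd5-/- samples were below both +/+ samples, although the level was low in every sample. TPM keeps no read depth, so the counting error behind a level is unknown. The 11 neural stem cell markers examined all reached a mean of 1 TPM and together made 8185.71 to 9872.50 TPM in +/+ and 4001.18 to 6918.92 TPM in Chd5-/-. The sum was mostly that of Fabp7, Slc1a3 and Vim, and over the 11 genes the median log2 difference was -0.10, with 5 lower in both Chd5-/- samples, 1 (Egfr) higher and 5 overlapping. In such bulk samples, fewer cells of a type and less RNA per cell cannot be told apart.

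The paralogues differ in how closely their coding sequences match, which bears on how well short reads separate them. The coding sequences of the thymosins, each of 44 codons without the stop, are shown in full below because the level of Tmsb10 differed more between genotypes than that of any other member, and the first 60 coding bases of the actins are shown because both were abundant (GENCODE M21 on GRCm38, capitals mark bases that differ within the pair).
Tmsb4x: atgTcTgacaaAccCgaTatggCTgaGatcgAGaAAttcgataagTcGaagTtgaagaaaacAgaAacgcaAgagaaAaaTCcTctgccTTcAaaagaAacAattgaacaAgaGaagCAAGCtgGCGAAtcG
Tmsb10: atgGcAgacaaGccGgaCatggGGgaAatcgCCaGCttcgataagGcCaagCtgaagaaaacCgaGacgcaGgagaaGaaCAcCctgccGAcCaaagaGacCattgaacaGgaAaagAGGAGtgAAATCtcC
Actb: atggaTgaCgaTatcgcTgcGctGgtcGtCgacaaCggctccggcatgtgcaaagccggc
Actg1: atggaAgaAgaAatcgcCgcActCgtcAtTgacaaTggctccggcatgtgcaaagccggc

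The thymosins differed at 40 of 132 coding bases (69.7% identity), and their longest identical run was 10 bases. Actb and Actg1 differed at 128 of 1125 coding bases (88.6% identity), with 9 of these among the first 60 bases and a longest identical run of 62 bases. Cfl1 and Cfl2 were 71.5% identical, Cfl1 and Dstn 68.7%, Cfl2 and Dstn 67.7%, and Pfn1 and Pfn2 61.7%. Counted over stretches of 50 bases, Tmsb4x, Cfl2, Pfn1, Pfn2 and Dstn shared none of their transcript with another annotated gene, and Arpc2 shared 0.216%. Tmsb10 shared 43.5% with 5 other genes, of which 4 were pseudogenes, Actb 14.2% with 18 genes, of which 14 were pseudogenes, Actg1 56.7% with 22 genes, of which 12 were pseudogenes, and Cfl1 9.11% with 3 pseudogenes. For Actb, 179 of the 266 shared stretches were shared with Lrrc58, a protein-coding gene. Among all these sharing genes, only Lrrc58, Acta2, Actb and Actg1 had an entry in the expression table. The levels of Tmsb10, Actb, Actg1 and Cfl1 are therefore uncertain to the extent that the counting divided such reads, and reads of antisense transcripts may also have entered any of the levels, since the strand setting of the counting is not given in the sources used here.

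The thymosins bind actin monomers and keep them from polymerising. Tmsb4x (chrX:167207093-167209315, minus strand) was at 3111.81 and 2363.59 TPM in +/+ and at 5164.20 and 6067.10 TPM in Chd5-/-. Both Chd5-/- samples were above both +/+ samples, and the group means were 2738 ± 529 and 5616 ± 638 TPM (SD, n = 2 each), a 2.05-fold difference. Tmsb4x ranked 15 and 19 among all genes by TPM in +/+ and 13 and 10 in Chd5-/-, and it alone made 38.9% to 53.1% of the summed TPM of the 10 members. On the log2(TPM + 1) scale the Chd5-/- mean was 1.05 above the +/+ mean, against a median of 0.34 over all genes tested. Tmsb10 (chr6:72957347-72958748, minus strand) was at 188.77 and 60.84 TPM in +/+ and at 474.07 and 399.78 TPM in Chd5-/-. The groups did not overlap, but +/+ replicate 1 was 3.10-fold above +/+ replicate 2, the widest gap within a group for any member. The ratio of the Tmsb10 group means was 3.50 and the log2 difference 2.01, which was 2.82 without +/+ replicate 1 and 1.2 without +/+ replicate 2. The ratio of Tmsb4x to Tmsb10 within a sample was 16.5 and 38.8 in +/+ and 10.9 and 15.2 in Chd5-/-. The log2 difference of this ratio was -0.96, but -0.35 without +/+ replicate 2 and -0.16 with trends against GC content and length removed.

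Actb and Actg1 encode the beta and gamma cytoplasmic actins. Actb (chr5:142903115-142906754, minus strand) was at 498.49 and 376.60 TPM in +/+ and at 744.55 and 778.63 TPM in Chd5-/-. Both Chd5-/- samples were higher, with a ratio of means of 1.74 and a log2 difference of 0.81. Actg1 (chr11:120345690-120348542, minus strand) was at 714.65 and 752.33 TPM in +/+ and at 1807.71 and 1192.90 TPM in Chd5-/-. The groups again did not overlap, and the Chd5-/- samples stood 1.52-fold apart against 1.05-fold between the +/+ samples. Its ratio of means was 2.05 and its log2 difference 1.00. Actg1 exceeded Actb in all 4 samples, and Actb over Actg1 was 0.698 and 0.501 in +/+ and 0.412 and 0.653 in Chd5-/-, so the balance of the actins overlapped between genotypes. The actins together made 1213.14 and 1128.93 TPM in +/+ and 2552.26 and 1971.53 TPM in Chd5-/-. The thymosins together exceeded them 2.72- and 2.15-fold in +/+ and 2.21- and 3.28-fold in Chd5-/-, and these ratios overlapped too.

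Profilins bind actin monomers, exchange their nucleotide and feed them to growing filaments. Pfn1 (chr11:70651850-70654644, minus strand), the form found in most tissues, was at 159.00 and 122.56 TPM in +/+ and at 260.36 and 231.45 TPM in Chd5-/-. Both Chd5-/- samples were higher, with a ratio of means of 1.75 and a log2 difference of 0.81, which turned to -0.11 with GC content and length trends removed. Pfn2 (chr3:57841895-57848079, minus strand), the form enriched in brain, was at 497.61 and 467.19 TPM in +/+ and at 350.44 and 511.93 TPM in Chd5-/-. The Chd5-/- samples enclosed the +/+ samples, and the log2 difference of -0.19 was smaller than the pooled SD of 0.28. Pfn2 exceeded Pfn1 in all 4 samples, but Pfn1 made 24.2% and 20.8% of the profilin TPM in +/+ and 42.6% and 31.1% in Chd5-/-. The sum of the profilins was 656.61 and 589.75 TPM in +/+ and 610.80 and 743.38 TPM in Chd5-/-, which overlapped.

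Cfl1, Cfl2 and Dstn encode the severing proteins cofilin 1, cofilin 2 and destrin. Cfl1 (chr19:5490455-5495201, plus strand), the non-muscle cofilin, was at 887.27 and 600.53 TPM in +/+ and at 1248.03 and 1337.89 TPM in Chd5-/-. The groups did not overlap, with a ratio of means of 1.74 and a log2 difference of 0.82. Cfl2 (chr12:54858809-54862877, minus strand), the cofilin best known from muscle, was at 217.95 and 227.26 TPM in +/+ and at 190.20 and 170.72 TPM in Chd5-/-. Here both Chd5-/- samples were lower, and the +/+ mean was 1.23-fold above the Chd5-/- mean, a difference that was gone with GC content and length trends removed. Dstn (chr2:143915320-143943324, plus strand) was at 572.55 and 637.00 TPM in +/+ and at 500.25 and 476.88 TPM in Chd5-/-. Its +/+ mean was 1.24-fold above its Chd5-/- mean, and the groups did not overlap. The log2 differences of Cfl2 and Dstn were -0.30 and -0.31, each with a pooled SD of 0.08.

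Cfl1 over Cfl2 was 4.07 and 2.64 in +/+ and 6.56 and 7.84 in Chd5-/-. Cfl1 over Dstn was 1.55 and 0.943 in +/+ and 2.49 and 2.81 in Chd5-/-. Both ratios, which do not change when a library is multiplied by a constant, were higher in each Chd5-/- sample than in either +/+ sample. Cfl1 made 52.9% and 41.0% of the TPM of these 3 genes in +/+ and 64.4% and 67.4% in Chd5-/-, while Dstn made 34.1% and 43.5% in +/+ and 25.8% and 24.0% in Chd5-/-. With GC content and length trends removed, the log2 difference of the ratio was 0.34 in place of 1.13 for Cfl1 over Cfl2, 0.75 in place of 1.13 for Cfl1 over Dstn, and 0.61 in place of 1.00 for Pfn1 over Pfn2.

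**Figure D1:**
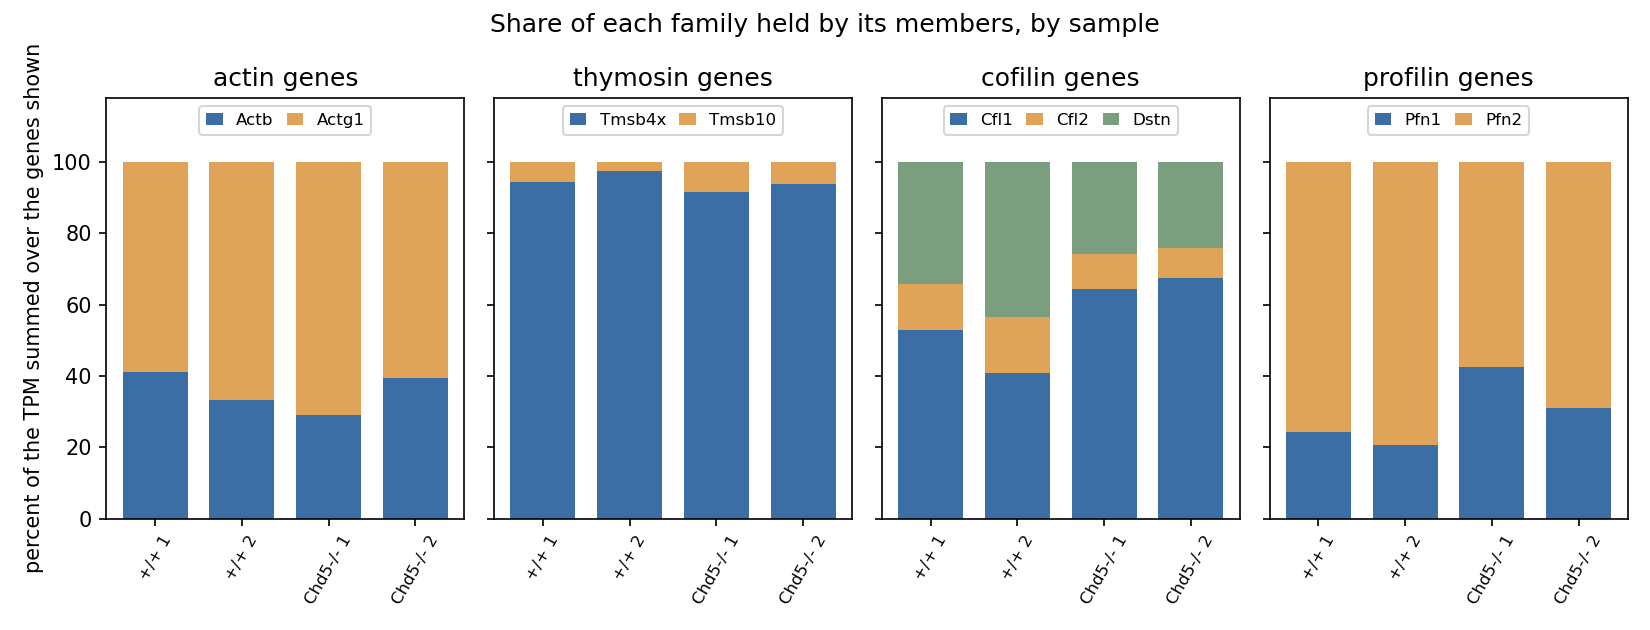
Percent of the TPM summed over the genes shown (y axis, 0 to 100) that each actin, thymosin, cofilin and profilin gene held in each of the 4 samples (x axis, genotype and replicate). Cfl1 held 64.4% and 67.4% of the cofilin family in the Chd5-/- samples against 52.9% and 41.0% in the +/+ samples, whereas the share of Actb overlapped between genotypes.

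Arpc2 (chr1:74236084-74268209, plus strand) encodes a subunit at the core of the Arp2/3 complex, which nucleates branched filaments. It was at 403.90 and 475.52 TPM in +/+ and at 406.33 and 265.16 TPM in Chd5-/-. Chd5-/- replicate 1 lay within the +/+ range and Chd5-/- replicate 2 below it, giving a log2 difference of -0.42 with a pooled SD of 0.33. The difference was -0.11 without Chd5-/- replicate 2 and -0.72 without Chd5-/- replicate 1.

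Of the 10 members, 6 (Tmsb4x, Tmsb10, Actb, Actg1, Cfl1 and Pfn1) had deposited TPM values in each Chd5-/- culture above those in either +/+ culture, as did 46.3% of all genes tested. Cfl2 and Dstn were lower in both Chd5-/- samples, as were 13.0% of all genes tested, and Pfn2 and Arpc2 overlapped. Because the members were selected on these levels, nothing is read from the counts. The 10 genes together made 0.725% and 0.608% of all TPM in +/+ and 1.11% and 1.14% in Chd5-/-. By mean level in +/+, the order was Tmsb4x, Cfl1, Actg1, Dstn, Pfn2, Arpc2, Actb, Cfl2, Pfn1 and Tmsb10. Among neighbours in that order, the replicate ranges overlapped for Cfl1 and Actg1, Pfn2 and Arpc2, Arpc2 and Actb, and Pfn1 and Tmsb10. In Chd5-/- the order was Tmsb4x, Actg1, Cfl1, Actb, Dstn, Tmsb10, Pfn2, Arpc2, Pfn1 and Cfl2, with overlapping ranges for Actg1 and Cfl1, Tmsb10 and Pfn2, and Pfn2 and Arpc2.

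**Figure D2:**
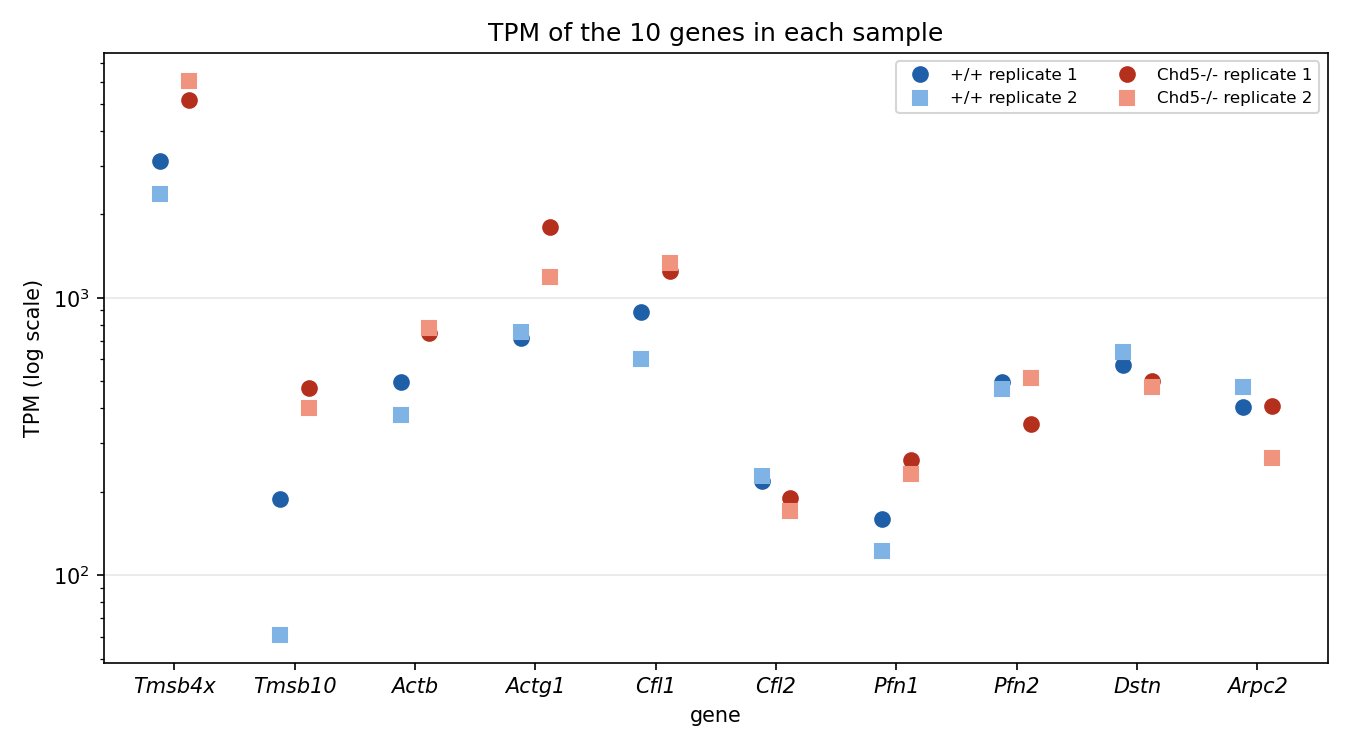
TPM on a log axis (y) of each of the 10 genes (x) in the 2 +/+ samples (blue) and the 2 Chd5-/- samples (red), one point per sample. Tmsb4x lies highest in every sample, from 2363.59 to 6067.10 TPM, and Tmsb10 has the widest gap between +/+ samples, 60.84 against 188.77 TPM.

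The median log2 difference over all 12576 genes tested was 0.34, so the deposited values as a whole were shifted towards Chd5-/-. Scaling the samples by the median of gene ratios brought that median to 0.01, quantile normalization to -0.05, and rescaling without the 20 most abundant genes to 0.13. Under these 3 scalings the 6 members that were higher in Chd5-/- had log2 differences of 0.44 to 1.85, and the other 4 had log2 differences of -0.40 to -0.79, so none of the 10 changed direction. Relative to the median of 0.34, the deposited difference was 1.67 for Tmsb10, 0.71 for Tmsb4x, 0.66 for Actg1, 0.48 for Cfl1 and 0.47 for both Actb and Pfn1. It was -0.53 for Pfn2, -0.64 for both Cfl2 and Dstn, and -0.75 for Arpc2 on the same relative scale.

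The transcripts of the members also differed in GC content, from 36.9% for Cfl2 to 55.4% for Pfn1 and 58.7% for Tmsb10. With trends against GC content and length removed, the log2 difference was 0.71 for Tmsb4x, 0.87 for Tmsb10, 0.33 for Actb, 0.40 for Actg1 and 0.34 for Cfl1, all still higher in Chd5-/-. Dstn at -0.40, Arpc2 at -0.63 and Pfn2 at -0.72 were still lower. Pfn1 turned to -0.11 and Cfl2 to 0.003, so the directions of these 2 genes rested on leaving such trends in. The part of GC content in the deposited differences was not tested.

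**Figure D3:**
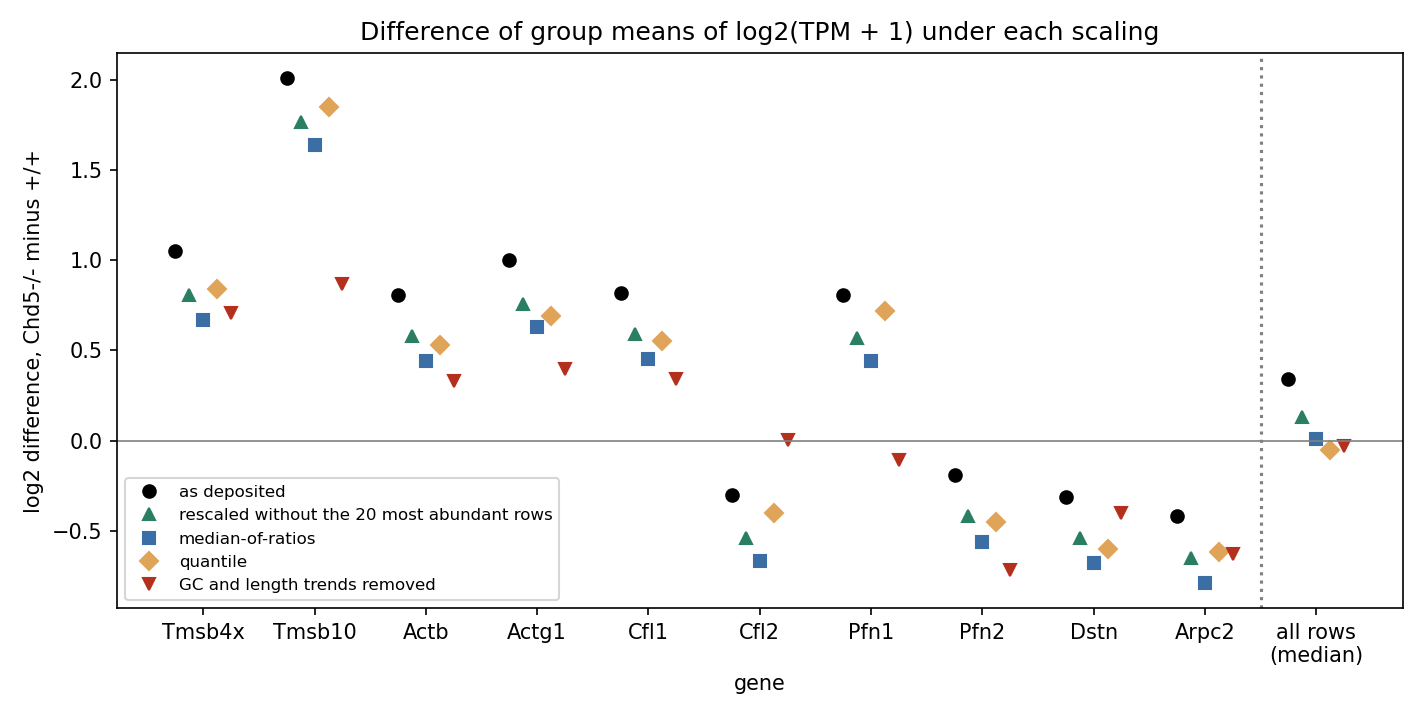
Log2 difference of group means of log2(TPM + 1), Chd5-/- minus +/+ (y), of each member and of the median gene (x), with values as deposited and under 4 other scalings (symbols). Points for Tmsb4x, Tmsb10, Actb, Actg1 and Cfl1 stay above 0 and those for Pfn2, Dstn and Arpc2 below 0 under all 5, while Pfn1 and Cfl2 cross to -0.11 and 0.003 once GC content and length trends are removed.

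Actin genes are classical targets of serum response factor, which binds the CArG box and whose coactivators of the MRTF family are held back by actin monomers. Promoters were read from RefSeq (GRCm38.p6) for the 9 members other than Actb, and the 250 bases before each start were searched on both strands. A CArG box was found for 1 of the 9, Actg1, and for 1.62% of the 27025 genes in the promoter table. The stretch of 203 bases on chr11:120348543-120348745, minus strand, is shown because it holds that box, in capitals. The box lies 90 to 81 bases before the RefSeq start at base 120348495 and 43 to 34 bases before the GENCODE start at base 120348542, where the stretch shown ends.
Actg1 promoter: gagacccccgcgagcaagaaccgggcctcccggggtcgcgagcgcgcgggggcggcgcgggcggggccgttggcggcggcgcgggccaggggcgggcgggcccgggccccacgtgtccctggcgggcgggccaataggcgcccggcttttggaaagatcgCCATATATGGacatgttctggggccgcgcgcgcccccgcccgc

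A TATA box (TATAAA) was found for 0 of the 9 members and 14.3% of all genes. A GC box (GGGCGG) was found for 8 of the 9, all but Cfl1, and for 35.4% of all genes, and some of these boxes overlapped each other. A CCAAT box (CCAAT) was found for Actg1, Cfl1 and Cfl2, and for 37.5% of all genes. GC boxes thus lay before genes that were higher in Chd5-/-, such as Tmsb4x, and before genes that were lower, such as Dstn.

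Another 137 genes of the actin pathway, in 12 lists by role, were compared with limma across all genes tested. Of these, 131 had an entry and 119 were tested. None passed an adjusted p of 0.05 (smallest adjusted p = 0.12), a threshold passed by 0.0557% of all genes tested. At an unadjusted p under 0.05, 33 of the 119 (27.7%) were higher in Chd5-/- against 21.9% of all genes, and 6 (5.04%) were lower against 2.27% of all genes. Their median log2 difference was 0.43, beside 0.34 over all genes. With GC content and length trends removed their median was -0.06 and 7 were higher and 6 lower, while over all genes the median was -0.03, with 4.60% higher and 6.09% lower.

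Among the 7 other monomer-binding genes, 2 (28.6%) were higher and 1 (14.3%) lower at an unadjusted p under 0.05. Over all genes tested, 21.9% were higher and 2.27% lower. With GC content and length trends removed, 0 were higher and 1 lower, and the median log2 difference was 0.01. Twf2, a twinfilin that caps filaments and binds monomers, was at 2.19 and 2.19 TPM in +/+ and at 7.78 and 9.34 TPM in Chd5-/- (log2 difference 1.58 ± 0.30 SE, limma adjusted p = 0.12). Cap2, a cyclase-associated protein that recycles monomers from cofilin, was at 74.18 and 77.29 TPM in +/+ and at 50.48 and 50.95 TPM in Chd5-/- (limma adjusted p = 0.186). Neither passed the adjusted threshold. The muscle actins were nearly absent: Acta2 was between 0.00 and 0.30 TPM in 3 samples and at 9.55 TPM in Chd5-/- replicate 1, and Actc1 was between 0.00 and 2.56 TPM in all 4.

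Arpc2 belongs to a complex whose other 9 subunit genes had a median log2 difference of -0.02. Of these, 1 (11.1%) was higher and 2 (22.2%) lower at an unadjusted p under 0.05, against 21.9% and 2.27% of all genes. Arpc1a and Arpc1b, alternative forms of 1 subunit, had log2 differences of 0.86 and 0.74. That of Arpc1b came through Chd5-/- replicate 1, at 29.30 TPM against 9.05 TPM in replicate 2 and 8.95 and 9.91 TPM in +/+. Actr3b and Actr2, which encode actin-related proteins of the complex, had log2 differences of -0.84 and -0.68. Arpc2 exceeded Actr2 1.18- and 1.12-fold in +/+ and 1.48- and 1.28-fold in Chd5-/-, whereas Arpc2 over Arpc3, another subunit, was 3.65 and 4.95 in +/+ and 2.86 and 1.71 in Chd5-/-. In the deposited values the subunit genes therefore did not differ in one direction. With GC content and length trends removed, the median of the 9 was -0.26. Under that setting 0 were higher and 2 lower at an unadjusted p under 0.05, beside 4.60% and 6.09% of all genes.

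Of 17 genes that activate the Arp2/3 complex, 6 (35.3%) were higher and 1 (5.88%) lower at an unadjusted p under 0.05. Over all genes tested, 21.9% were higher and 2.27% lower. With GC content and length trends removed, 1 was higher and 1 lower, and the median log2 difference was -0.01. Wipf3, a binding partner of WASP proteins, was at 0.18 and 0.59 TPM in +/+ and at 6.16 and 4.84 TPM in Chd5-/-, the highest log2 difference of all 119 (2.24). Baiap2, a membrane-bending adaptor, followed with 1.46, and Wasl, which encodes N-WASP, and Abi1, of the WAVE complex, were lowest with -0.60 and -0.51. Of 12 formin and Spire genes, which nucleate unbranched filaments, 1 (8.33%) was higher and 1 (8.33%) lower. These counts were also 1 and 1 with GC content and length trends removed, with a median log2 difference of -0.36. Fmnl3 was at 1.08 and 0.70 TPM in +/+ and at 4.09 and 6.73 TPM in Chd5-/-, while Fmnl2 was at 276.32 and 262.89 TPM in +/+ and at 138.38 and 139.56 TPM in Chd5-/-. Fmnl2 had the lowest log2 difference of the pathway, -0.95, and these related formins thus lay at opposite ends of their list. Inf2 had a log2 difference of 0.66 and Diaph2 of -0.44. That of Inf2 came through Chd5-/- replicate 1, at 8.16 TPM against 2.28 TPM in replicate 2 and 2.10 and 2.90 TPM in +/+. The Ena/VASP genes, which extend filaments at their tips, ranged from 0.39 for Enah to 0.70 for Evl, with 0 of 3 below an unadjusted p of 0.05.

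Of 18 capping and severing genes, 4 (22.2%) were higher and 1 (5.56%) lower at an unadjusted p under 0.05. Over all genes tested, 21.9% were higher and 2.27% lower. With GC content and length trends removed, 0 were higher and 1 lower, and the median log2 difference was -0.06. Coro1b, a coronin that acts with cofilin at branches, was at 20.98 and 14.42 TPM in +/+ and at 44.24 and 54.85 TPM in Chd5-/-. Capza2, a subunit of the capping protein, was at 557.16 and 603.38 TPM in +/+ and at 326.43 and 334.77 TPM in Chd5-/-. Capg had a log2 difference of 1.35 and Eps8 of -0.68, each with Chd5-/- replicate 2 near the +/+ level (limma adjusted p = 0.313 and 0.447). Of 12 genes that control cofilin by phosphorylation, 2 (16.7%) were higher and 0 lower, against 21.9% and 2.27% of all genes. The kinase genes Tesk1 and Pak4 were highest with log2 differences of 1.39 and 1.08, and Rock1 and Pak2 were lowest with -0.38 and -0.25. With GC content and length trends removed, Tesk1 was at 0.29, Pak4 at 0.05, Rock1 at -0.26 and Pak2 at -0.27. Under that setting 0 of these cofilin control genes were higher and 0 lower, and their median was -0.11.

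Genes for proteins that bind along filaments had the largest share higher in Chd5-/-. Of 14 side-binding and crosslinking genes, 9 (64.3%) were higher and 0 lower at an unadjusted p under 0.05, with a median log2 difference of 1.05. Over all genes tested, 21.9% were higher and 2.27% lower, and the median was 0.34. Cald1, which encodes caldesmon, was at 90.77 and 157.11 TPM in +/+ and at 448.22 and 248.22 TPM in Chd5-/-. The tropomyosin genes Tpm3 and Tpm1, whose products coat filaments, were the lowest with log2 differences of 0.09 and 0.11. Of 8 non-muscle myosin genes, 5 (62.5%) were higher and 0 lower, with a median of 1.00. Myl9 and Myl6, which encode myosin light chains, had log2 differences of 2.07 and 1.81, and Myl6 was at 150.40 and 105.37 TPM in +/+ and at 526.11 and 372.67 TPM in Chd5-/-. Myh10, a heavy chain, and Myl12a had log2 differences of 0.02 and 0.12. With GC content and length trends removed, the medians were 0.30 for the side-binding genes, with 3 higher, and 0.33 for the myosin genes, with 2 higher, beside the 4.60% of all genes that were higher under that setting.

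Of 11 other genes of the serum response factor pathway, 3 (27.3%) were higher and 0 lower at an unadjusted p under 0.05. Over all genes tested, 21.9% were higher and 2.27% lower. With GC content and length trends removed, 0 were higher and 0 lower, and the median log2 difference was -0.05. That setting left out genes without a GC content value, among them Cyr61 and Ctgf. Cyr61 was at 2.44 and 3.12 TPM in +/+ and at 21.75 and 9.60 TPM in Chd5-/-, and Ctgf was at 0.52 and 0.76 TPM in +/+ and at 25.28 and 1.14 TPM in Chd5-/-. The high Ctgf level was thus that of Chd5-/- replicate 1, the sample in which Acta2 was also highest. Fos and Egr1, immediate early genes, were lowest with log2 differences of 0.06 and 0.33.

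**Figure D4:**
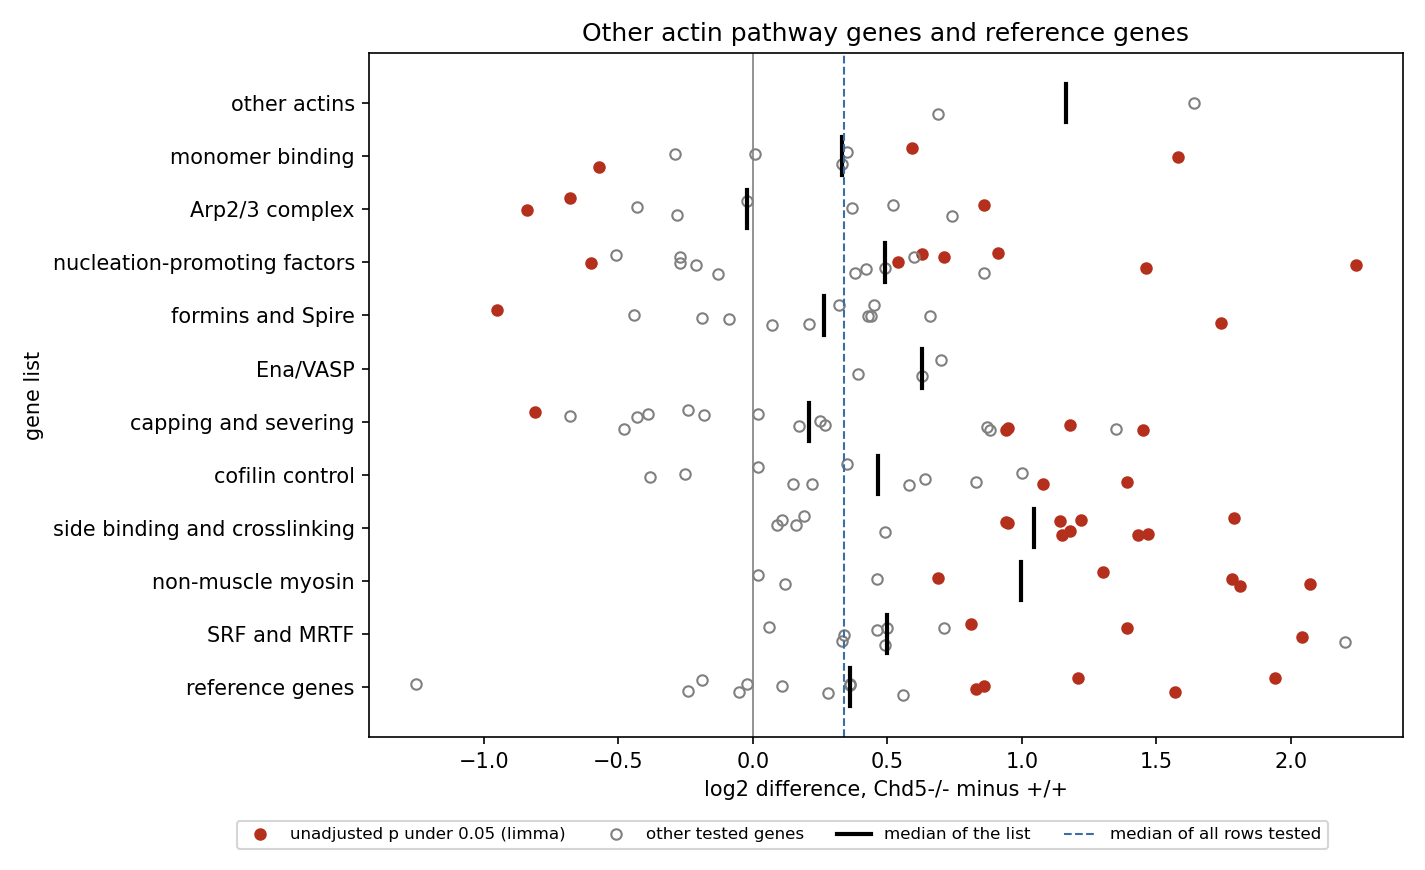
Log2 difference, Chd5-/- minus +/+ (x), of each tested gene in 11 of the 12 pathway lists and in the list of reference genes (y), filled where the unadjusted p of limma was under 0.05, with the median of each list (bar) and of all genes tested (dashed line at 0.34). The side-binding and myosin lists have medians of 1.05 and 1.00, whereas the Arp2/3 list is centred on -0.02.

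Actb is often used as a reference gene, and 15 other such genes were examined beside it. Of these, 5 (33.3%) were higher in Chd5-/- and 0 lower at an unadjusted p under 0.05, against 21.9% and 2.27% of all genes tested. None passed an adjusted p of 0.05 (smallest adjusted p = 0.12, limma). With GC content and length trends removed, 1 was higher and the median log2 difference of the 15 was 0.06. Gapdh, a glycolytic enzyme, was at 463.70 and 378.15 TPM in +/+ and at 2153.83 and 1204.16 TPM in Chd5-/-, and Rplp0, a ribosomal protein gene, was at 227.10 and 142.18 TPM in +/+ and at 441.14 and 652.91 TPM in Chd5-/-. Tfrc and Hprt were lowest with log2 differences of -1.25 and -0.24, both through Chd5-/- replicate 2, at 30.94 and 22.65 TPM. In Chd5-/- replicate 1, Hprt was at 134.33 TPM, above its +/+ levels of 65.92 and 66.14 TPM. Tfrc was at 140.57 TPM in that sample, within its +/+ range of 135.63 to 186.23 TPM. Actb over Gapdh was 1.08 and 0.996 in +/+ and 0.346 and 0.647 in Chd5-/-, and Actg1 over Gapdh was 1.54 and 1.99 in +/+ and 0.839 and 0.991 in Chd5-/-. Relative to Gapdh, therefore, both actins were lower in the Chd5-/- samples, while relative to all TPM both were higher. Gapdh had the highest log2 difference of the 15 reference genes, 1.94. Their median was 0.36, below the 0.81 of Actb and the 1.00 of Actg1. Cfl1 over Actb stayed between 1.59 and 1.78 in the 4 samples.

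Markers of microglia and of mesenchymal cells, other possible sources of these transcripts, were examined as well. Tmsb4x and Tmsb10 are abundant in microglia, for which 4 of 13 markers had an entry and together made 0.50 to 0.67 TPM in +/+ and 0.34 to 1.15 TPM in Chd5-/-. P2ry12, a microglial receptor gene, was at most 0.45 TPM and Aif1 was listed at 0.00 in 3 samples. The 9 mesenchymal markers made 0.44 and 0.45 TPM in +/+ and 25.40 and 5.60 TPM in Chd5-/-, mostly Acta2, Col3a1 (7.41 TPM) and Dcn (4.17 TPM) in replicate 1 and Twist1 (5.16 TPM) in replicate 2, with Col1a1 at or below 0.07 TPM throughout. Their part in the levels of Actb, Actg1 and the thymosins was not tested. Without Chd5-/- replicate 1, the log2 differences were 1.16 for Tmsb4x, 1.89 for Tmsb10, 0.84 for Actb, 0.70 for Actg1, 0.87 for Cfl1 and 0.73 for Pfn1. Endothelial markers (6 of 8 with an entry) made 5.17 and 19.78 TPM in +/+ and 2.28 and 1.29 TPM in Chd5-/-, mostly Flt1. Summed markers of astrocytes, neurons and the oligodendrocyte lineage overlapped between genotypes. Chd5-/- replicate 1 had the lowest sums, 536.33, 378.54 and 504.42 TPM in that order. Chd5-/- replicate 2 had the highest, 1429.82, 804.74 and 927.88 TPM. The neuron sum was mostly Map2, at 502.92 and 515.77 TPM in +/+ and at 365.59 and 784.89 TPM in Chd5-/-. No other neuron marker exceeded 12.34 TPM, the level of Elavl3 in +/+ replicate 1. Of the 5 tested neuron markers, Map2 and Dcx overlapped between genotypes. The Chd5-/- levels of Syt1 and Elavl4 lay above the +/+ range, and those of Elavl3 below it.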

How the data were processed

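RNA of 4 cultures of primary NSCs (2 +/+, 2 Chd5-/-) was sequenced from mRNA libraries made with a stranded kit. The authors deposited 1 table of TPM per gene and sample. Per the submitters' processing notes, reads were handled with Bowtie2 2.2.3 and RSEM 1.2.20 on mm10; the annotation and the strand setting are not given in the sources used here. TPM divides by transcript length and sums to a fixed total, so a rise of abundant genes lowers all others, and it keeps no read depth.

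From the deposited TPM, log2(TPM + 1) was compared between genotypes with limma 3.58.1 in R 4.3.3 (trended variance, Benjamini-Hochberg adjustment) over the 12576 genes with a mean of at least 1 TPM, with a threshold of 0.05. Groups and replicate numbers came from the sample titles. An exact permutation test of 2 against 2 samples cannot go below p = 0.333 and was not used. P-values set the difference of group means against a variance estimated from 2 cultures per genotype and moderated towards the trend over all genes tested. The members and gene lists were chosen with earlier results of these data known, so no list was tested as a set and no member was tested. In each pathway list and the reference list, the genes named were those with an adjusted p under 0.05 and the 2 highest and 2 lowest log2 differences (1 and 1 in lists with under 8 tested genes), besides all members, Chd5, Gapdh and markers; Arpc3 was named afterwards for the ratio with Arpc2. Of 227 list genes, 209 had an entry, 3 of them by a synonym, and the rest were not analysed here. A gene and a list that this rule would name are not reported here.

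Alternatives were pseudocounts of 0.1 and 5, leaving out the minimum or raising it to 10 TPM, median-of-ratios, quantile and top-20-free scaling, removal of GC content and length trends (loess, span 0.5, GENCODE M21 lengths for 93% of the genes tested), a replicate block, and leaving out each sample. The GENCODE and RefSeq annotations on GRCm38 may differ from that of the authors. The fit was tested on simulated data with known changes before use. Tables and drawings were made with Python 3.11.15, pandas 2.3.3 and matplotlib 3.10.9.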

Additional observations from a re-analysis of the deposited data

How the results depend on the processing

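Across 150 recalculations of the members' log2 differences, 113 moved by less than the pooled replicate SD, 32 by more, and 5 changed sign. Many of these outcomes were fixed by the design. A replicate block or a change of the minimum TPM cannot alter a member's log2 difference. Leaving out 1 sample cannot move it by more than the pooled SD, although its sign can change. The count of 113 is therefore no measure of stability. The sign changes were those of Pfn1 (-0.11) and Cfl2 (0.003) with GC content and length trends removed, with and without the replicate block, and of Pfn2 without Chd5-/- replicate 1 (leave-one-out range -0.46 to 0.086). Ratios changed sign for Actb over Actg1 (leave-one-out range -0.52 to 0.14, from -0.19) and for thymosins over actins (-0.13 to 0.44, from 0.16). The members' median of 0.81 became 0.44 with median-of-ratios scaling, 0.54 with quantile normalization, 0.57 rescaled without the 20 most abundant genes and 0.16 with the GC content and length trends removed, with or without the replicate block, and ranged from 0.58 to 0.98 with 1 sample left out.

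Genes past an adjusted p of 0.05 (limma) numbered 4 higher and 3 lower in Chd5-/-. The higher ones became 2 with a pseudocount of 5, 1 with quantile normalization or GC content and length trends removed, and 0 with no minimum or either replicate block; the lower ones became 1 with a pseudocount of 0.1 and 0 with no minimum, quantile normalization or either block. With 1 sample left out, whose lone partner is assumed to vary like the other group, they ranged from 0 to 1018 higher and 0 to 229 lower: both were 0 without either +/+ sample, and 1018 and 229 without Chd5-/- replicate 1 and 914 and 172 without Chd5-/- replicate 2. At an unadjusted p under 0.05, the 2748 higher genes became 1512 with a minimum of 10 TPM, 1508 with median-of-ratios scaling, 1103 with quantile normalization, 538 with GC content and length trends removed and 363 with the block added, and 723 to 3493 with 1 sample left out. The 285 lower genes became 1311, 1024 and 820 with median-of-ratios, quantile and top-20-free scaling, 712 with the GC content and length trends removed, 439 with the block added, 178 with the replicate block alone, and 81 to 943 with 1 sample left out.

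Of the other pathway genes, the 33 higher became 18 with a minimum of 10 TPM or median-of-ratios scaling, 17 with quantile normalization, 7 with GC content and length trends removed, 5 with the block added, and 13 to 45 with 1 sample left out. The 6 lower became 19 with median-of-ratios and 11 with top-20-free scaling, 3 with either replicate block, and 0 to 11 with 1 sample left out. The 5 higher reference genes became 3 with median-of-ratios, quantile or top-20-free scaling or the replicate block, 1 with GC content and length trends removed, with or without the block, and 3 to 5 with 1 sample left out; the 0 lower ones ranged from 0 to 2.

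Replicate numbers are shared between genotypes, but the deviations of same-numbered samples correlated at r = -0.15 and no source ties them to a litter, so the block is an alternative only. The crossed pairing, added after that correlation was seen, gave 3 higher and 2 lower genes at an adjusted p under 0.05, 2808 and 284 at an unadjusted p, and 1 lower reference gene. Where a value moved, the cause was not tested. Depth is unknown, and with 2 cultures per genotype 1 sample decided the direction of Pfn2 and moved the log2 difference of Arpc2 between -0.72 and -0.11 and that of Tmsb10 between 1.2 and 2.82.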
